A study of Mus musculus with 12 samples.

Results

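The 3 mouse genes for inositol trisphosphate receptors, Itpr1, Itpr2 and Itpr3, were followed across bulk RNA sequencing of the left ventricle. They were chosen by family, 3 of 78334 genes in the table, after Itpr2 had been noticed as lower in UNX/DOCA vehicle than in Sham vehicle hearts. All 3 had enough counts to be tested, among 16981 such genes. The study has 3 groups of 4 mice with 1 library per animal. UNX/DOCA ITF2357 mice had the UNX/DOCA surgery (removal of a kidney with deoxycorticosterone acetate, a mineralocorticoid), which gives a model of diastolic dysfunction. From 4 weeks after surgery their chow held ITF2357, also called givinostat, which inhibits histone deacetylases, and they ate it for 4 weeks. UNX/DOCA vehicle mice had the same surgery and ate normal chow, and Sham vehicle mice had sham surgery and normal chow. No Sham group received the drug, and the labels give no strain, sex or age.

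Inositol trisphosphate (IP3) receptors are calcium channels in the membrane of the endoplasmic and sarcoplasmic reticulum. Ligands such as endothelin and angiotensin act through Gq proteins and phospholipase C to make IP3, which opens these channels. In heart muscle cells the type encoded by Itpr2 is known as the main one, and calcium released at the nuclear envelope is linked there to calmodulin kinase II, export of class IIa histone deacetylases and MEF2 activity. The type encoded by Itpr1 is known from smooth muscle and Purkinje neurons, and that encoded by Itpr3 from epithelia and secretory cells.

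The receptors are paralogs, so the stretches that their messages share bear on whether reads can be assigned to 1 gene. In the GENCODE M21 annotation (GRCm38), Itpr1 (ENSMUSG00000030102) and Itpr2 (ENSMUSG00000030287) lie on chromosome 6 and Itpr3 (ENSMUSG00000042644) on chromosome 17. Their principal transcripts have 62, 57 and 58 exons in that order and encode 2749, 2701 and 2670 residues. The longest identical coding stretch of each pair is shown with 12 bases on either side, 5′ to 3′ on the sense strand. Capitals mark the identical bases, 28 for Itpr1 with Itpr2, 29 for Itpr1 with Itpr3 and 32 for Itpr2 with Itpr3.

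Itpr1, with Itpr2: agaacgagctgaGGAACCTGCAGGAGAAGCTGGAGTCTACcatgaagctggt

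Itpr2, with Itpr1: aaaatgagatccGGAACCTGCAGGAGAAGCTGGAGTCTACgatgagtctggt

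Itpr1, with Itpr3: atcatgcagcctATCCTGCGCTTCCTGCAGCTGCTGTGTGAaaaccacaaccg

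Itpr3, with Itpr1: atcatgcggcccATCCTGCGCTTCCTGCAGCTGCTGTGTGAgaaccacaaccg

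Itpr2, with Itpr3: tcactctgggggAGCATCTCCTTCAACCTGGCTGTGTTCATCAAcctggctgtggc

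Itpr3, with Itpr2: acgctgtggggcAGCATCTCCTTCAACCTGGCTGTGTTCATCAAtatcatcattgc

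These stretches are far shorter than the reads of 150 bases. Of all windows of 50 bases along the principal transcripts, 0 were shared between any pair of the 3 genes. At 30 bases, Itpr2 and Itpr3 shared 3 windows, 0.036% of those of Itpr2 and 0.033% of those of Itpr3, and the other pairs shared 0. Reads of these transcripts were thus distinguishable by sequence, although how the authors treated reads with several matches is not stated in the labels.

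Library totals ran between 23.4 and 34.9 M counts, at which a level of 1 CPM (counts per M counts) was about 28.3 reads. Marker genes of heart muscle cells summed to between 50100 and 66200 CPM in the 12 libraries, so the libraries carried heart muscle. The atrial gene Myl7 stayed between 0 and 0.633 CPM. Other atrial markers did not all stay as low, as with Nr2f2 at 3.64 to 13.9 CPM and Nppa at 77.8 CPM or more. Whether the libraries held atrial tissue beside the labelled ventricle was not tested. UNX/DOCA vehicle replicate 3 stood apart. Its neutrophil markers summed to 514 CPM and its macrophage markers to 448 CPM, against at most 159 and 331 CPM in the other 3 libraries of its group. Its GC-rich genes were also high: the median log2 deviation of the 10% of genes richest in GC exceeded that of the 10% poorest in GC by 0.38, against -0.21 to 0.06 in the other 11 libraries. The corresponding difference by transcript length was -0.23 in this library, against -0.27 to 0.19 in the other 11. For the receptor genes, fold changes and shares per kb of exon that rest on this library are given with and without it. So is the likeness of the genes most like them. Values of other genes use all 4 libraries of the group unless stated. In bulk tissue, fewer cells of a type and less RNA per cell cannot be told apart.

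Itpr2, the receptor known as the main one of heart muscle cells, was lower in both UNX/DOCA groups than in Sham vehicle hearts. In UNX/DOCA ITF2357 hearts it had 34.7, 27.9, 29.0 and 29.9 CPM (scaled by TMM, a correction for library composition). It had 25.1, 27.8, 24.1 and 29.8 CPM in UNX/DOCA vehicle hearts, and 39.2, 41.3, 41.6 and 38.2 CPM in Sham vehicle hearts. Each of the 8 UNX/DOCA libraries was below each of the 4 Sham libraries, and the UNX/DOCA groups overlapped each other. Over all tested genes, 6.39% lay below Sham with no overlap in UNX/DOCA ITF2357 hearts and 4.36% in UNX/DOCA vehicle hearts. The means were 30.4 ± 3.01 CPM with ITF2357, 26.7 ± 2.59 CPM in UNX/DOCA vehicle hearts and 40.1 ± 1.67 CPM in Sham vehicle hearts (SD, n = 4 each), with the smallest SD in Sham. The raw counts behind them ran from 580 to 1479 reads per library.

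Itpr1, the receptor known from smooth muscle, had 37.7, 32.1, 38.5 and 30 CPM in UNX/DOCA ITF2357 hearts. It had 33.0, 27.8, 21.7 and 34.6 CPM in UNX/DOCA vehicle hearts, and 38.9, 33.0, 37.1 and 38.1 CPM in Sham vehicle hearts. All 3 groups overlapped, and the widest group was UNX/DOCA vehicle, whose replicate 3 gave the lowest value of the 12. The means were 34.6 ± 4.18 CPM with ITF2357, 29.3 ± 5.87 CPM in UNX/DOCA vehicle hearts and 36.8 ± 2.62 CPM in Sham vehicle hearts (SD, n = 4 each).

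Itpr3, the receptor known from epithelia, had the lowest level of the family. It had 8.69, 11.3, 10.5 and 8.37 CPM in UNX/DOCA ITF2357 hearts. UNX/DOCA vehicle hearts had 7.46, 7.98, 11.5 and 7.66 CPM, and Sham vehicle hearts 9.81, 10.3, 9.02 and 9.21 CPM. Replicate 3 of UNX/DOCA vehicle was the highest of the 12 libraries, while the other 3 of that group were the lowest 3 of the 12. The means were 9.72 ± 1.42 CPM with ITF2357, 8.64 ± 1.9 CPM in UNX/DOCA vehicle hearts and 9.59 ± 0.587 CPM in Sham vehicle hearts (SD, n = 4 each), from 202 to 373 reads per library.

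**Figure D1:**
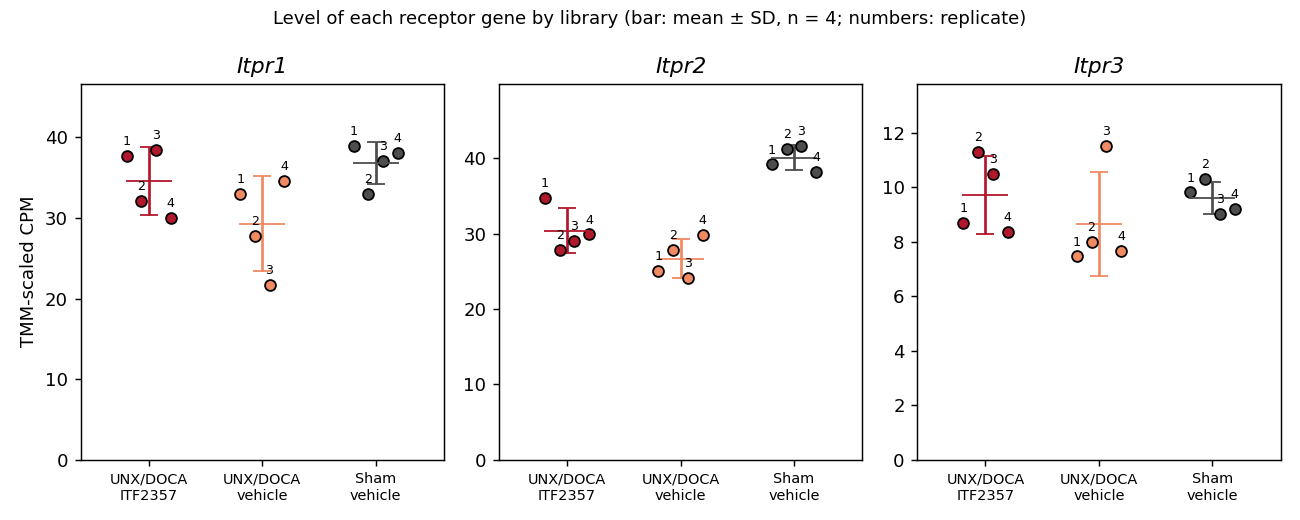
TMM-scaled CPM (vertical axis, from 0) of Itpr1, Itpr2 and Itpr3 in each library, by group, with replicate numbers, and the mean ± SD of 4 libraries as bars. For Itpr2 the 4 Sham vehicle libraries sit between 38.2 and 41.6 CPM, above all 8 UNX/DOCA libraries, and for Itpr3 the replicate 3 of UNX/DOCA vehicle sits at 11.5 CPM, above the other 3 of its group.

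Levels can be compared between the genes only per length, and the summed exons (union over transcripts) measure 18319 bases for Itpr1, 14802 for Itpr2 and 9019 for Itpr3. On the scale of CPM per kb of exon, the levels in UNX/DOCA ITF2357 hearts were 2.05 ± 0.204 for Itpr2, 1.89 ± 0.228 for Itpr1 and 1.08 ± 0.158 for Itpr3 (SD, n = 4). In UNX/DOCA vehicle hearts they were 1.8 ± 0.175 for Itpr2, 1.6 ± 0.32 for Itpr1 and 0.958 ± 0.21 for Itpr3. Sham vehicle hearts had Itpr2 at 2.71 ± 0.113, Itpr1 at 2.01 ± 0.143 and Itpr3 at 1.06 ± 0.0651, and no 2 of these Sham ranges overlapped. The order was the same in the 3 groups, but Itpr2 and Itpr1 overlapped in both UNX/DOCA groups. On this scale Itpr1 and Itpr3 overlapped in UNX/DOCA vehicle hearts through replicate 3, with 1.18 for Itpr1 and 1.27 for Itpr3. They were apart in the other groups. Per kb of the principal transcript that library had 2.19 for Itpr1 and 1.28 for Itpr3, and the 2 genes did not overlap in its group.

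As a share of the family's level per kb, Itpr2 made up 40.9% ± 3.43 with ITF2357, 41.3% ± 2.17 in UNX/DOCA vehicle hearts and 46.9% ± 1.81 in Sham vehicle hearts (SD, n = 4 each). Its highest share in a UNX/DOCA library was 44.0%, and its lowest in a Sham library was 45.2%. With the length of the principal transcript in place of all exons, the Itpr2 share was 44.3% ± 3.22, 45.0% ± 2.27 and 50.1% ± 2.08 in the same groups, again with no Sham library among the others. Itpr1 took 37.5% ± 2.19 with ITF2357, 36.5% ± 5.65 in UNX/DOCA vehicle hearts and 34.7% ± 2.38 in Sham vehicle hearts, and those ranges overlapped. Itpr3 took 21.5% ± 3.27, 22.2% ± 6.08 and 18.4% ± 1.18 in that order of groups, also overlapping. By the principal transcript Itpr3 took 13.2% ± 2.22, 13.7% ± 4.28 and 11.1% ± 0.782 in those groups. Itpr1 then took 42.5% ± 2.35, 41.3% ± 5.3 and 38.8% ± 2.48, and the ranges of both genes still overlapped. With all exons but without UNX/DOCA vehicle replicate 3, that group had 41.8% ± 2.38 for Itpr2, 39.0% ± 3.2 for Itpr1 and 19.2% ± 1.42 for Itpr3 (SD, n = 3). The ratio of Itpr2 counts to Itpr1 counts, which needs no scaling between libraries, was 0.885 ± 0.103 with ITF2357, 0.934 ± 0.155 in UNX/DOCA vehicle hearts and 1.10 ± 0.118 in Sham vehicle hearts. It ran from 0.751 to 0.996 in UNX/DOCA ITF2357 libraries and from 1.00 to 1.25 in Sham libraries. Replicates 1 to 4 of UNX/DOCA vehicle had 0.76, 1.00, 1.11 and 0.861, so the vehicle groups overlapped, with only replicate 3 above 1.00.

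**Figure D2:**
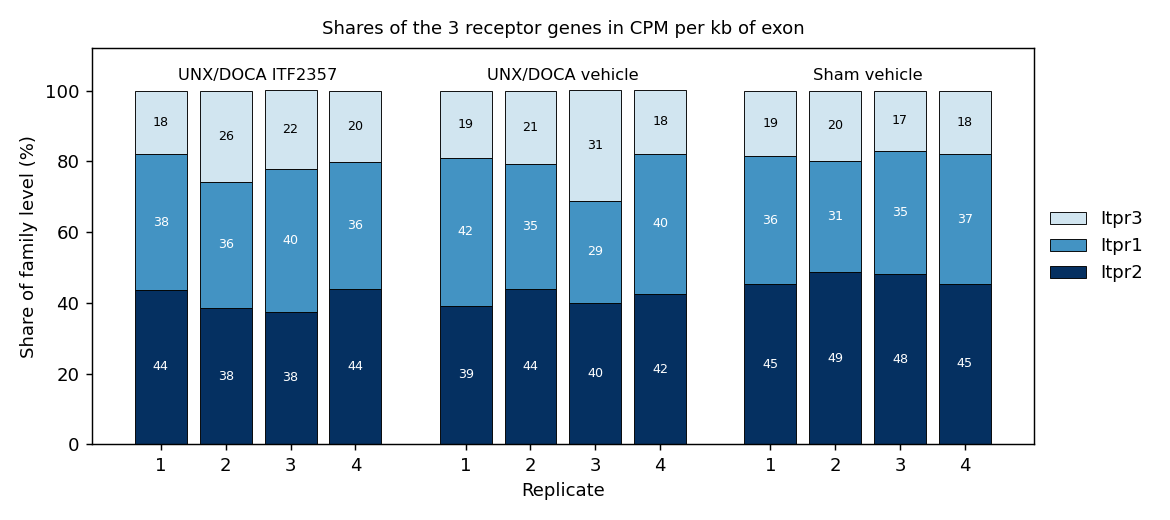
Share (%) of each receptor gene in the family's summed CPM per kb of exon, 1 bar per library, with Itpr2 at the bottom, Itpr1 in the middle and Itpr3 on top. The Itpr2 share lies at or below 44.0% in the 8 UNX/DOCA libraries and between 45.2% and 48.7% in the 4 Sham vehicle libraries, and Itpr3 reaches 31.2% in UNX/DOCA vehicle replicate 3.

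With ITF2357 against Sham vehicle, the comparison asks how far hearts with both surgery and drug stood from hearts with neither. Itpr2 fell and the other receptor genes did not pass the test. Itpr2 was 24.2% lower in UNX/DOCA ITF2357 than in Sham vehicle hearts (log2 fold change -0.40 ± 0.09 SE, 95% interval -0.59 to -0.21, edgeR quasi-likelihood adjusted p = 0.0423). The highest ITF2357 library lay 3.45 CPM below the lowest Sham library. In this comparison 1.75% of the 16981 genes were called at an adjusted p under 0.05 (0.913% higher and 0.842% lower), and 6.39% lay below Sham with no overlap. Itpr1 had a log2 fold change of -0.09 ± 0.13 (interval -0.38 to 0.20, edgeR adjusted p = 0.759) and Itpr3 of 0.02 ± 0.15 (interval -0.30 to 0.34, edgeR adjusted p = 0.958). The Sham libraries here are those in which Itpr2 had been noticed as high, so the test is not independent of the choice of the gene.

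The Itpr2 call lay near the threshold. It held in 8 of the 10 other settings tried and was lost under upper-quartile scaling (adjusted p = 0.0539) and with replicate number as a block (edgeR adjusted p = 0.0672). With 1 library left out its log2 fold change stayed between -0.48 and -0.37, while the call remained in 3 of 12 such fits. It was lost without ITF2357 replicate 2, 3 or 4 (edgeR adjusted p = 0.0844, 0.106 and 0.0969), without UNX/DOCA vehicle replicate 2 or 4 (0.0553 and 0.0549) and without Sham replicate 1, 2, 3 or 4 (0.109, 0.124, 0.0650 and 0.0988). Without UNX/DOCA vehicle replicate 3 it had a log2 fold change of -0.41 (edgeR adjusted p = 0.0273).

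Other features of the same libraries are given beside the Itpr2 difference, and their part in it was not tested. Smooth muscle markers summed to 259 to 467 CPM in ITF2357 libraries and 446 to 595 CPM in Sham libraries, with 1 of 7 tested markers called lower. By gene, 4 of these 7 were above 0 in log2 fold change and 3 below (median 0.33), so the lower sum does not hold for the list as a set. Erythroid markers summed to 134 to 309 CPM with ITF2357 and 246 to 308 CPM in Sham. All 5 tested erythroid markers were below 0 in log2 fold change (median -0.75), and 0 were called. Heart muscle cell markers summed to 54700 to 59400 and 52900 to 66200 CPM in the same groups, with 0 of 10 called. Atrial markers, which include the load-responsive Nppa, summed to 234 to 858 CPM with ITF2357 and 94.5 to 164 CPM in Sham, with 2 of 5 called higher. Endothelial sums were 863 to 1300 and 1020 to 1110 CPM, with 0 of 10 called. Markers of T, B and NK cells summed to 0.525 to 1.15 CPM with ITF2357 and 1.58 to 3.24 CPM in Sham, with 1 of 2 called lower. Neutrophil markers summed to 5.03 to 28.2 CPM with ITF2357 and 13.6 to 45.1 CPM in Sham, with all 6 tested markers below 0 in log2 fold change (median -1.09) and 0 called. Macrophage markers summed to 157 to 308 CPM with ITF2357 and 176 to 209 CPM in Sham, with 7 of 8 above 0 and 0 called. Long transcripts were slightly lower in UNX/DOCA ITF2357 than in Sham vehicle hearts. Over the 10% of genes with the longest transcripts the median log2 fold change was -0.06, against 0.01 for all genes. Of these long genes 1.82% were called, beside 1.75% of all genes. This was not particular to the drug. For UNX/DOCA vehicle against Sham vehicle the median of the long genes was -0.1, against 0.01 for all genes. For ITF2357 against UNX/DOCA vehicle it was 0.05, against 0 for all genes. The receptor genes are themselves long, at length percentiles 97.7 for Itpr1, 98.9 for Itpr2 and 96.8 for Itpr3.

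With ITF2357 against UNX/DOCA vehicle, the comparison asks what the drug did in operated hearts, and none of the 3 receptor genes was called. All 3 had positive log2 fold changes: 0.24 ± 0.13 for Itpr1 (interval -0.05 to 0.53, edgeR adjusted p = 0.358), 0.18 ± 0.09 for Itpr2 (-0.01 to 0.38, edgeR adjusted p = 0.286) and 0.17 ± 0.15 for Itpr3 (-0.15 to 0.49, edgeR adjusted p = 0.565). The groups overlapped for each. In this comparison 0.901% of genes were called (0.459% higher and 0.442% lower), and 9.31% had no overlap between the groups. The intervals leave room for higher levels of each gene with ITF2357, for no difference and for slightly lower levels. UNX/DOCA vehicle replicate 3 weighed on these values: without it the log2 fold change was 0.12 for Itpr1 (edgeR adjusted p = 0.658), 0.13 for Itpr2 (edgeR adjusted p = 0.502) and 0.33 for Itpr3 (edgeR adjusted p = 0.218). This comparison shares its vehicle libraries with the one in which Itpr2 was noticed.

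With UNX/DOCA vehicle against Sham vehicle, the comparison that drew attention to Itpr2, the values are a description only. Itpr2 was 33.4% lower in UNX/DOCA vehicle hearts (log2 fold change -0.59), with 8.35 CPM between the highest UNX/DOCA vehicle library and the lowest Sham library. Itpr1 had a ratio of means of 0.796 and a log2 fold change of -0.33, and Itpr3 a ratio of 0.901 and a log2 fold change of -0.15, both with overlapping groups. Over all genes edgeR called 0%, while 15.9% (2699 genes) had an unadjusted p under 0.05. DESeq2 called 593 genes and limma-voom 559 (sample weights). UNX/DOCA vehicle lay below Sham with no overlap in 4.36% of genes. Without UNX/DOCA vehicle replicate 3 the log2 fold change was -0.54 for Itpr2, -0.21 for Itpr1 and -0.32 for Itpr3. Both comparisons of UNX/DOCA with Sham use the same 4 Sham libraries, so their values are not independent of each other.

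**Figure D3:**
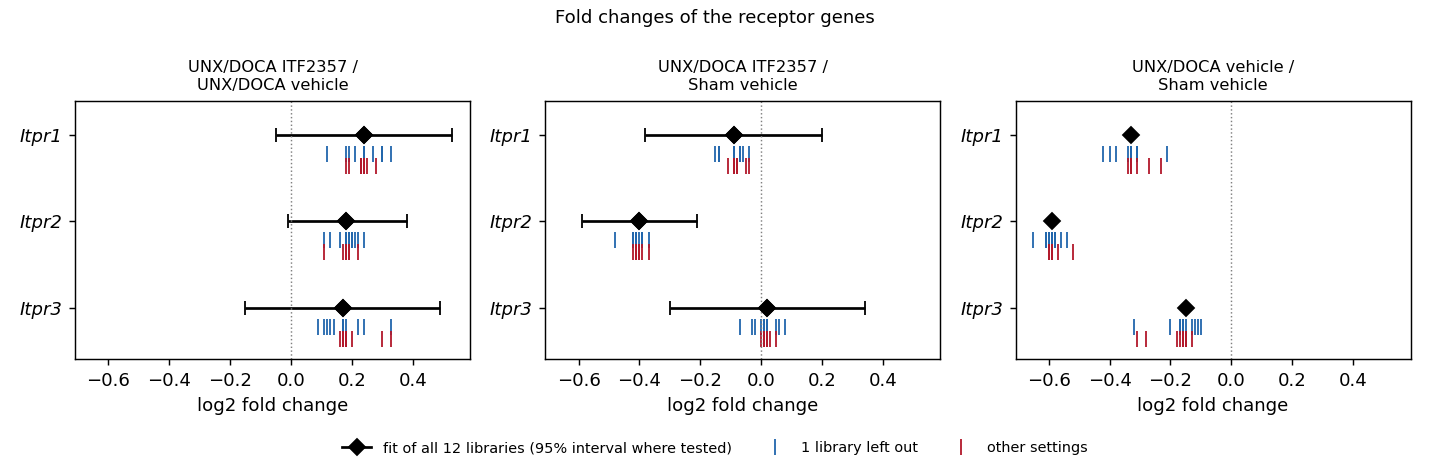
Log2 fold changes of the receptor genes in the 3 comparisons (horizontal axis), as diamonds with 95% intervals where a test was made, above ticks for fits with 1 library left out (blue) and for other settings (red). Itpr2 lies at -0.40 for UNX/DOCA ITF2357 over Sham vehicle, with its left-out values between -0.48 and -0.37, while Itpr3 lies near 0 there, between -0.07 and 0.08.

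The receptor genes differed in how they varied among animals within a group. Between the 12 libraries, log2 CPM of Itpr1 and Itpr2 had a Pearson r of 0.65, and 0.44 after the group means were removed. Itpr3 ran the other way within groups, with r = -0.61 to Itpr1 and -0.59 to Itpr2. Without UNX/DOCA vehicle replicate 3 these within-group values were 0.17 for Itpr1 with Itpr2, -0.08 for Itpr1 with Itpr3 and -0.41 for Itpr2 with Itpr3 (11 libraries), so the first 2 rested largely on that library. With group means kept in, r without that library was 0.53 for Itpr1 with Itpr2, 0.31 for Itpr1 with Itpr3 and 0.35 for Itpr2 with Itpr3, against 0.65, -0.19 and 0.06 in all 12 libraries. The libraries share their scaling, and Itpr3 is richer in GC than 90% of tested genes, while Itpr1 and Itpr2 are near the middle (percentiles 50.1 and 50.4).

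Among 12112 genes with an approved symbol and at least 1 CPM, those most like Itpr2 over the 12 libraries were Fndc5 (r = 0.92), which encodes the precursor of irisin, and Iars2 (r = 0.92), a mitochondrial isoleucyl-tRNA synthetase. Dglucy (r = 0.91), the receptor tyrosine kinase Ephb1 (r = 0.90) and Asb14 (r = 0.89) came next. With group means removed these 5 had r between 0.66 and 0.85. The least like Itpr2 were the tropomyosin gene Tpm2 (r = -0.91), Pacsin1 (r = -0.89) and Snrpc (r = -0.88), a component of the U1 small nuclear ribonucleoprotein. Like Itpr2, the first 5 had their highest mean in Sham vehicle hearts, as in Ephb1 with 25.9, 22.5 and 35.2 CPM in ITF2357, UNX/DOCA vehicle and Sham vehicle hearts, and Tpm2 had its lowest there, with 20.2, 22 and 11.8 CPM. Differences between groups are part of what the measure ranks.

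The genes most like Itpr1 were Rfc1 (r = 0.93), the large subunit of replication factor C, Miga1 (r = 0.93), Hook1 (r = 0.92), Cacna2d2 (r = 0.91), an accessory subunit of voltage-gated calcium channels, and Zmym4 (r = 0.91). The least like were Glmp (r = -0.92), Mfsd5 (r = -0.91) and Cyb5r3 (r = -0.89). For Itpr3 they were Mum1 (r = 0.87), Cnot3 (r = 0.86), a subunit of the CCR4-NOT deadenylase complex, Nynrin (r = 0.84), Aatk (r = 0.83) and Pik3r6 (r = 0.83), and at the other end Ntmt1 (r = -0.86), Eprs (r = -0.85) and Eif5 (r = -0.84). UNX/DOCA vehicle replicate 3 was the lowest library for all 5 genes like Itpr1 and the highest for those like Itpr3 except Nynrin, which was highest in ITF2357 replicate 2. Without that library the 5 genes like Itpr1 had r between 0.76 and 0.82 and none stayed among the first 5, while the 5 like Itpr3 had r between 0.77 and 0.85 and 1 stayed, Cnot3 (11 libraries). The 5 like Itpr2 then had r between 0.88 and 0.94, with Dglucy still among the first 5. All 15 genes stayed within the first 100 of 12112.

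**Figure D4:**
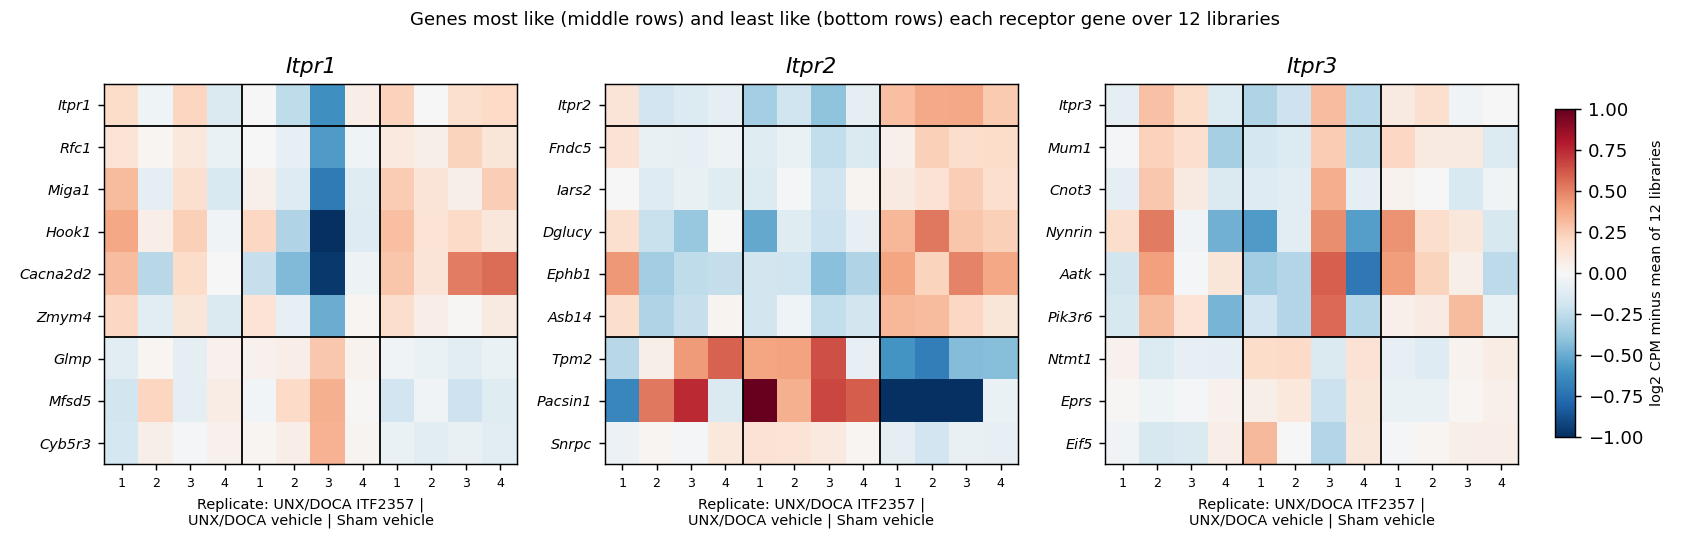
Deviation of log2 CPM from the mean of 12 libraries (colour, with values beyond -1 and 1 shown at the ends of the scale) for each receptor gene (top), the 5 genes most like it and the 3 least like it. Columns are replicates of UNX/DOCA ITF2357, UNX/DOCA vehicle and Sham vehicle. The top row of the Itpr2 panel separates the Sham columns from the 8 others, while in rows such as Ephb1 UNX/DOCA ITF2357 replicate 1 lies among the Sham columns, and in the Itpr1 panel UNX/DOCA vehicle replicate 3 has the strongest colours.

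Genes near the receptors in the reference annotation gave 1 further call. Ints13, a subunit of the Integrator complex and 1 of the 2 nearest genes on one side of Itpr2, on the same strand, averaged 19.9 ± 1.38 CPM with ITF2357, 21.6 ± 1.58 CPM in UNX/DOCA vehicle hearts and 28.3 ± 3.48 CPM in Sham vehicle hearts (SD, n = 4 each). It fell with ITF2357 against Sham vehicle (log2 fold change -0.51 ± 0.10, edgeR adjusted p = 0.0328), with no overlap. The call was lost in 6 of 12 fits with a library left out, those without ITF2357 replicate 2, 3 or 4 or Sham replicate 1, 2 or 4 (edgeR adjusted p = 0.0586 to 0.106), and with library totals (0.0507). Against UNX/DOCA vehicle Ints13 had a log2 fold change of -0.12 (edgeR adjusted p = 0.543). The other neighbours with enough counts, Fgfr1op2, Sspn and Sspnos by Itpr2, Sumf1, Rpl36-ps12, Bhlhe40 and Arl8b by Itpr1, and Ggnbp1 and Uqcc2 by Itpr3, were not called in any comparison. Genes annotated on the strand opposite a receptor gene summed to few reads over the 12 libraries (Gm44040 23, Gm44101 1, Gm44087 33 and Itpr3os 7). On the same strand as Itpr2 and overlapping it, Gm15720 had 156 reads and Gm44086 had 51. Gm15720 had enough counts to be tested and was not called in any comparison. How reads on overlapping genes were assigned is not stated in the labels.

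The steps before and after the receptors were read through 7 lists, 162 tested genes besides the receptors. With ITF2357 against UNX/DOCA vehicle 1 rose and 2 fell (1.85%, beside 0.901% of all genes). Against Sham vehicle 3 rose and 1 fell (2.47%, beside 1.75% of all genes), and for UNX/DOCA vehicle against Sham vehicle 0 were called, as over all genes. The median log2 fold changes of the 162 genes were -0.01, -0.02 and -0.03 in that order, beside 0, 0.01 and 0.01 over all genes. The lists hold genes that promote and genes that oppose IP3 signalling, so these medians do not give a direction for the pathway.

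Upstream of the receptors, no gene of 3 lists was called in any comparison: 21 Gq-coupled receptors and their ligands, 10 Gq proteins and regulators, and 12 phospholipases C. Among the ligands, Edn3, an endothelin, averaged 14.4 ± 4.51 CPM with ITF2357, 14.2 ± 3.19 CPM in UNX/DOCA vehicle hearts and 6.56 ± 2.49 CPM in Sham vehicle hearts. Its edgeR adjusted p was 0.0663 for ITF2357 against Sham and 0.130 for UNX/DOCA vehicle against Sham. Agt, the precursor of angiotensin, averaged 8.26 ± 1.96 CPM with ITF2357, 7.32 ± 1.64 CPM in UNX/DOCA vehicle hearts and 4.15 ± 1.63 CPM in Sham vehicle hearts (edgeR adjusted p = 0.0650 and 0.171). Edn1, the main endothelin of blood vessels and named after its values were seen, had lower means in the operated groups, with 6.41 ± 2.78 CPM with ITF2357, 5.25 ± 2.43 CPM in UNX/DOCA vehicle hearts and 8.13 ± 3.42 CPM in Sham vehicle hearts (edgeR adjusted p = 0.642 and 0.428). The ligands thus had means on both sides of Sham, and none passed the test. Rgs2, which turns off Gq proteins, averaged 36.9 ± 7.73 CPM with ITF2357, 35.1 ± 6.38 CPM in UNX/DOCA vehicle hearts and 24.6 ± 1.8 CPM in Sham vehicle hearts (edgeR adjusted p = 0.0645 and 0.151 for each operated group against Sham). P2ry2, a Gq-coupled nucleotide receptor, averaged 38.7 ± 5.76 CPM with ITF2357 and 50.9 ± 2.8 CPM in UNX/DOCA vehicle hearts (log2 fold change -0.39, edgeR adjusted p = 0.0772). Plce1, the cardiac phospholipase C epsilon, averaged 34.5 ± 5.07 CPM with ITF2357 and 25.9 ± 6.9 CPM in UNX/DOCA vehicle hearts (edgeR adjusted p = 0.202).

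In IP3 and phosphoinositide metabolism 1 of 27 genes passed the test, in the comparison of ITF2357 with UNX/DOCA vehicle. Cds1, which makes the CDP-diacylglycerol used to rebuild phosphatidylinositol, rose to 12.3 ± 1.87 CPM with ITF2357, against 7.72 ± 0.871 CPM in UNX/DOCA vehicle hearts (log2 fold change 0.68 ± 0.14, edgeR adjusted p = 0.0480). This call was lost in each of the 12 fits with a library left out (edgeR adjusted p = 0.0523 to 0.121) and in 6 of the 10 other settings. Itpkb, a kinase that phosphorylates IP3, averaged 76.2 ± 20.4 CPM with ITF2357 and 105 ± 12.7 CPM in Sham vehicle hearts (log2 fold change -0.46, edgeR adjusted p = 0.160). Impad1, a phosphatase of the inositol monophosphatase family, averaged 65.0 ± 2.18 CPM with ITF2357 and 50.1 ± 6.94 CPM in UNX/DOCA vehicle hearts, with no overlap (edgeR adjusted p = 0.0772).

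Of 34 tested genes listed as receptor partners and regulators, 3 rose with ITF2357 against Sham vehicle and 0 fell, with a list median log2 fold change of 0. That comparison joins surgery and drug, so these calls are not of the drug alone. With ITF2357 against UNX/DOCA vehicle 0 of the 34 were called, with log2 fold changes from -0.52 to 0.59. For UNX/DOCA vehicle against Sham vehicle 0 were called, with values from -0.29 to 1.07. Bcl2, an inhibitor of apoptosis that binds IP3 receptors, rose to 16.8 ± 1.95 CPM with ITF2357, against 12.3 ± 0.811 CPM in Sham vehicle hearts (log2 fold change 0.45 ± 0.09, edgeR adjusted p = 0.0366). Fkbp1b, known chiefly as the stabilising partner of the ryanodine receptor, was at 0.920 ± 0.212 CPM with ITF2357 and 0.299 ± 0.155 CPM in Sham vehicle hearts (1.62 ± 0.34, edgeR adjusted p = 0.0366), a low level in all groups. Ankrd1, known as a stretch-responsive repressor rather than for binding IP3 receptors, averaged 1620 ± 312 CPM with ITF2357 and 809 ± 206 CPM in Sham vehicle hearts (1.01 ± 0.17, edgeR adjusted p = 0.0229). Of these 3 calls, 1 is of a binding partner and 2 are of genes known mainly for other roles. The Bcl2 call was lost without ITF2357 replicate 2 or 3, UNX/DOCA vehicle replicate 2 or 4, or any of the 4 Sham libraries (edgeR adjusted p = 0.0522 to 0.124), and also with library totals (0.0507), no filter (0.0655) and the replicate block (0.0587). That of Fkbp1b was lost without ITF2357 replicate 1, 3 or 4, UNX/DOCA vehicle replicate 4, or Sham replicate 1, 2 or 3 (0.0533 to 0.123) and with the replicate block (0.0509), and that of Ankrd1 without ITF2357 replicate 3 or Sham replicate 1, 2 or 4 (0.0664 to 0.0897) and with no filter (0.0669). Prkg1, the cGMP-dependent kinase that restrains IP3 receptors in smooth muscle, averaged 22.6 ± 3.33 CPM with ITF2357, 15 ± 5.04 CPM in UNX/DOCA vehicle hearts and 12.8 ± 2.95 CPM in Sham vehicle hearts (edgeR adjusted p = 0.189 and 0.0751 for ITF2357 against each).

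Among 28 other calcium genes of the reticulum, Casq1 fell with ITF2357 in both of its comparisons. Casq1, the calsequestrin best known from skeletal muscle, fell to 9.84 ± 1.79 CPM with ITF2357, against 22.6 ± 3.71 CPM in UNX/DOCA vehicle hearts and 19.8 ± 4.94 CPM in Sham vehicle hearts. The log2 fold changes were -1.20 ± 0.18 and -1 ± 0.18 (edgeR adjusted p = 0.0196 and 0.0269), and the ITF2357 libraries, shared by both comparisons, overlapped neither group. Against UNX/DOCA vehicle the call was lost without ITF2357 replicate 1 or 4 or vehicle replicate 4 (edgeR adjusted p = 0.0523 to 0.0656), and also with only the 2 groups compared (0.0523) and without vehicle replicates 3 and 4 (0.0564). Against Sham it was lost without ITF2357 replicate 4 or Sham replicate 1, 2 or 4 (0.0552 to 0.0716). The main calcium pump and release channel of heart muscle were not called: Atp2a2 averaged 12700 ± 646 CPM with ITF2357, 11400 ± 356 CPM in UNX/DOCA vehicle hearts and 13800 ± 997 CPM in Sham vehicle hearts. Ryr2 averaged 1480 ± 261 CPM in UNX/DOCA vehicle hearts and 1940 ± 126 CPM in Sham vehicle hearts, with no overlap (log2 fold change -0.39, edgeR adjusted p = 0.136).

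Downstream, 1 of 30 genes for calmodulin kinase II, protein kinases C and D, class IIa histone deacetylases, MEF2 and calcineurin with NFAT was called. Rcan1, an inhibitor and transcriptional target of calcineurin signalling, fell to 108 ± 10.3 CPM with ITF2357, against 234 ± 77.4 CPM in UNX/DOCA vehicle hearts (log2 fold change -1.12 ± 0.20, edgeR adjusted p = 0.0324). The call was lost without ITF2357 replicate 1, 3 or 4, vehicle replicate 4 or Sham replicate 4 (edgeR adjusted p = 0.0515 to 0.0984). It was also lost in 4 of the 10 other settings: with no filter (0.0810), with only the 2 groups compared (0.0966), with the replicate block (edgeR adjusted p = 0.0572) and without vehicle replicates 3 and 4 (0.0707). Other genes of this list came near the threshold against Sham vehicle. Camk2g averaged 45.8 ± 7.07 CPM with ITF2357 and 61.8 ± 4.47 CPM in Sham vehicle hearts (log2 fold change -0.43, edgeR adjusted p = 0.0522). Mef2d averaged 107 ± 19.2 CPM with ITF2357, 131 ± 6.11 CPM in UNX/DOCA vehicle hearts and 147 ± 12.9 CPM in Sham vehicle hearts (edgeR adjusted p = 0.196 and 0.0593). Ppp3ca, a catalytic subunit of calcineurin, averaged 77.2 ± 3.33 CPM with ITF2357, 64.6 ± 6.08 CPM in UNX/DOCA vehicle hearts and 60.9 ± 4.62 CPM in Sham vehicle hearts (edgeR adjusted p = 0.125 and 0.0516).

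**Figure D5:**
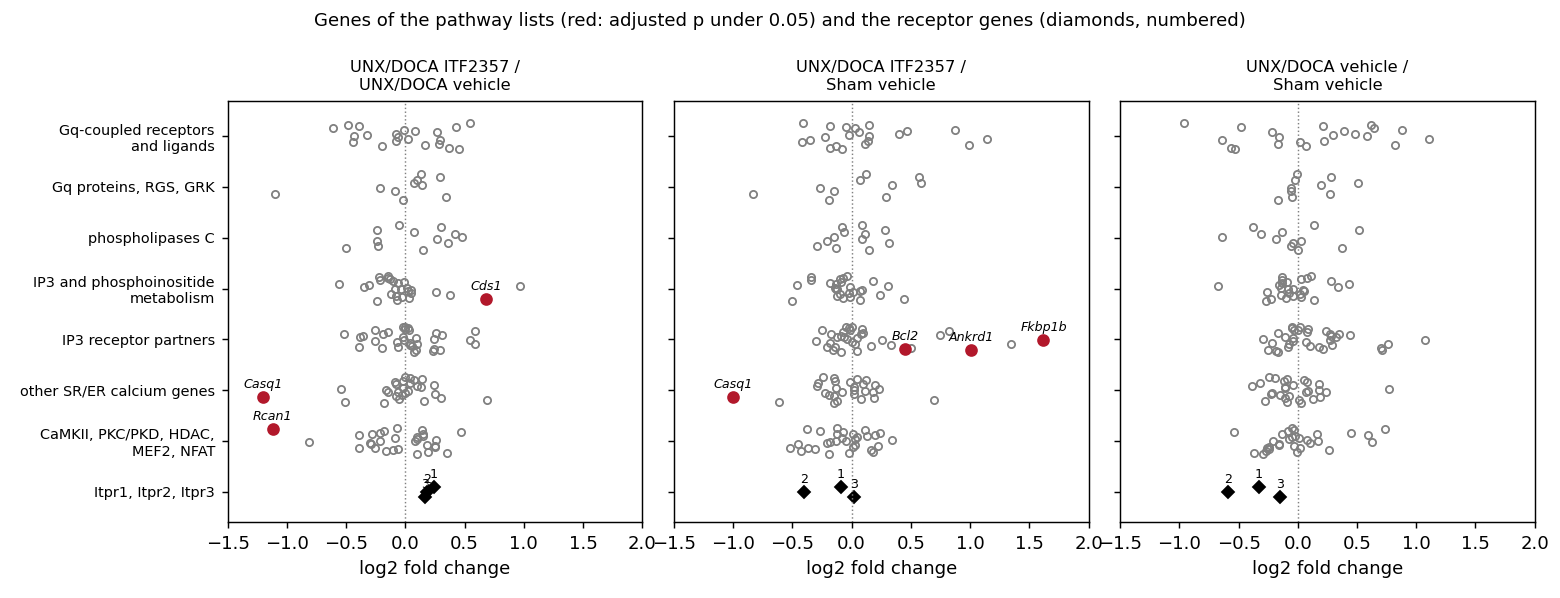
Log2 fold changes (horizontal axis) of the tested genes of the 7 pathway lists (circles, 1 row per list, red where the edgeR adjusted p was under 0.05) and of the receptor genes (diamonds numbered 1 to 3) in the 3 comparisons. The named red points are the 7 calls, from Casq1 at -1.20 to Fkbp1b at 1.62, and Itpr2 lies to the left of the other receptor genes in both comparisons with Sham vehicle.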

How the data were processed

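The authors deposited raw counts for each Ensembl gene, not normalized, from poly(A)-selected directional libraries of about 10 mg of left ventricle, read as pairs of 150 bases, per the labels' protocols. The submitters' processing notes name FastQC 0.11.9, STAR 2.7.10b and the mm39 build. The counting tool, strand setting and annotation are not given in the sources used. Samples were grouped by title, which names ITF2357 in all 4 drug libraries, whereas a treatment field numbers them differently.

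Genes passing filterByExpr (10 counts) were scaled by TMM and tested in edgeR 4.0.16 (R 4.3.3) with robust quasi-likelihood F tests over all 12 libraries, a term per group and 9 residual degrees of freedom. P values were adjusted by Benjamini-Hochberg over all 16981 genes, with a threshold of 0.05. Errors of log2 fold changes are standard errors, computed from the fold change and the square root of F. The common biological coefficient of variation was 0.187, and p-values reflect the spread between 4 animals per group. The chi-square per degree of freedom between 2 replicates of a group was 10.9 to 57.3, so none was a copy of another. Likeness is Pearson r of log2 CPM (prior count 2), without a test. Symbols, lengths, GC and sequences came from GENCODE M21 (GRCm38), by Ensembl identifier, and no coordinates were used.

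Replicate numbers showed no strong pairing of animals: over 12 pairs of libraries with the same number, deviations from group means correlated between -0.19 and 0.25. Such correlations cannot exclude a weak pairing. Alternatives were 10 other settings (RLE, upper-quartile or library-total scaling, no filter, at least 1 CPM in 4 libraries, the tools DESeq2 1.42.0 and limma-voom 3.58.1 with sample weights, only the 2 groups compared, a replicate block, UNX/DOCA vehicle replicates 3 and 4 left out) and each library left out. In 1 simulated draw of ITF2357 against UNX/DOCA vehicle over 16981 genes, the test called 136 of 200 genes changed by 1 on the log2 scale and 7 unchanged ones. A change of 1 is larger than any fold change of the receptor genes, so this draw does not show how often changes of their size are called. Likeness and family shares without UNX/DOCA vehicle replicate 3 were added after the data were seen. The receptor genes, pathway lists, settings and naming rules were chosen with earlier results of these data known. The rules name up to 4 genes of smallest p per list and comparison (of which the text gives a part and all that were called), the 5 most and 3 least like each receptor gene, and the 2 nearest genes on each side.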

Additional observations from a re-analysis of the deposited data

Results flagged for a closer look

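Itpr3 in UNX/DOCA vehicle replicate 3 was far from the rest of its group, at 11.5 CPM against a median of 7.66 CPM in the other 3 libraries, a gap of 0.869 of the group's range where the critical value is 0.829. Chance marks about 1 in 20 groups this way, and 9 groups of 4 were looked at. In the same library Itpr1 was the lowest of the 12, at 21.7 CPM, and Itpr2 the lowest of the 12, at 24.1 CPM. Its neutrophil markers summed to 514 CPM, and GC-rich genes exceeded GC-poor ones by 0.38 in median log2 deviation. The part of these in the Itpr3 value was not tested.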

How the results depend on the processing

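For Itpr2 in UNX/DOCA ITF2357 against Sham vehicle, the log2 fold change stayed between -0.42 and -0.37 over the 10 settings, with the call lost under upper-quartile scaling (-0.37) and with the replicate block (-0.40), and between -0.48 and -0.37 with a library left out. The replicate block adds a number that does not pair animals. Itpr1 and Itpr3 stayed uncalled throughout in both comparisons with ITF2357. Itpr3 against Sham vehicle lay near 0 and changed sign in 3 fits, -0.07 to 0.08 with a library left out. In the description of UNX/DOCA vehicle against Sham vehicle, the values ran over all alternatives from -0.65 to -0.52 for Itpr2, -0.42 to -0.21 for Itpr1 and -0.32 to -0.10 for Itpr3. Each moved by less than the SD of log2 CPM pooled over the vehicle groups (0.11, 0.23 and 0.21), though by more than the Sham SD alone (0.06, 0.11 and 0.09).

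Counts of called genes moved most. For ITF2357 against UNX/DOCA vehicle (153 called) they were 352 with no filter, 926 with DESeq2, 239 with limma-voom, 5 with only the 2 groups compared, 68 with the replicate block, 12 without vehicle replicates 3 and 4, and 14 to 243 with a library left out. For ITF2357 against Sham vehicle (298 called) they were 1168 with DESeq2, 1528 with limma-voom, 475 with only the 2 groups, 192 with the block, 481 without vehicle replicates 3 and 4, and 17 to 616 with a library left out. For UNX/DOCA vehicle against Sham vehicle (0 called) they were 7 with upper-quartile scaling, 210 with no filter, 593 with DESeq2, 559 with limma-voom, 31 with the block, 1 without vehicle replicates 3 and 4, and 0 to 380 with a library left out. The cause of these moves was not tested. The 12 libraries limit which differences in Itpr1 and Itpr3 could be seen, as their intervals show.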
